A study of Mus musculus with 12 samples.

Results

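The genes described here are 10 immediate early genes of neurons: Fos, Fosb, Fosl2, Junb, Egr1, Egr2, Egr4, Arc, Npas4 and Nr4a1. They were picked by gene symbol from a table of 27179 genes counted by RNA sequencing in mouse cortex, and all 10 were found in it. All 10 were also among the 15298 genes with enough counts to be tested.

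Immediate early genes are transcribed within minutes of a stimulus, without new protein synthesis, and their transcripts decay quickly. In neurons of the cortex, calcium entry during synaptic activity drives kinases that act on the factors CREB, SRF and MEF2 already bound at these genes. Most of the products are transcription factors, and Arc is a protein of the synapse. Their transcript levels in the cortex are widely used as a record of recent neuronal activity, and they also respond to growth factors and stress in other cells.

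Promoters are shown for members whose levels moved together, with Npas4 and Fosb beside them, because they hold short letters of the kind read by CREB. Windows of 250 bases before the transcription start were taken from a RefSeq table (GRCm38.p6, the assembly also called mm10), which held a window for 8 of the 10 members and none for the other two, Arc and Egr1. In the sequences below, capitals mark the 5 letters TGACG of a cAMP response element (CRE) or their reverse complement CGTCA, and in Egr2 also the CArG letters read by SRF.
Fos (chr12:85473640-85473889, plus strand): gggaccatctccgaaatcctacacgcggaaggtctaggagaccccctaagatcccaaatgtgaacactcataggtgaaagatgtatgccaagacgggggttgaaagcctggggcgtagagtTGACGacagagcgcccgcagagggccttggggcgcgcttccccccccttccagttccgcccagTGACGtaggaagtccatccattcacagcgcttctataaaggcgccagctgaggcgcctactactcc
Junb (chr8:84978749-84978998, minus strand): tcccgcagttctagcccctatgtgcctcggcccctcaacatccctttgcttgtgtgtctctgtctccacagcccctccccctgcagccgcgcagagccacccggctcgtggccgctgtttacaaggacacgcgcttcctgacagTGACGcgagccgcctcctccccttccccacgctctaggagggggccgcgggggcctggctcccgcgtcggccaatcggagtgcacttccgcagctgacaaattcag
Nr4a1 (chr15:101266596-101266845, plus strand): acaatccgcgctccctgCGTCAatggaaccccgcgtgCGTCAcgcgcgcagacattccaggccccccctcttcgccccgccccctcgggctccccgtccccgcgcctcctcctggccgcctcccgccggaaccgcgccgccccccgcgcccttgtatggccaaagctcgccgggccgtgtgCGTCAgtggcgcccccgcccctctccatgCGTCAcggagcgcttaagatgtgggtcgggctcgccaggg
Egr4 (chr6:85513590-85513839, minus strand): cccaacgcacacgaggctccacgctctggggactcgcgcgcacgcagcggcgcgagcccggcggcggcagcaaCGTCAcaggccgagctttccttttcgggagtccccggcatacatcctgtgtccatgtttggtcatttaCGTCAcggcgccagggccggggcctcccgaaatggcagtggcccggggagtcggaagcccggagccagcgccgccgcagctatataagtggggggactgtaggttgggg
For Egr2, Npas4 and Fosb only a stretch of 30 bases around the letters is shown.
Egr2 (chr10:67537793-67537822, plus strand): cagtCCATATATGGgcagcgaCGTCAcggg
Npas4 (chr19:4990128-4990157, minus strand): cgttcgaCGTCAcgggaTGACGtcggaagt
Fosb (chr7:19310088-19310117, minus strand): tggagttgcgggTGACGcaagcgcgggggc
Both strands were searched. The letters TGACG were in the windows of 7 of the 8 members, the exception being Fosl2, and in 17.8% of all 32851 windows in the table. The first share counts genes with the letters in any window, the second counts windows. Egr2 had several windows, and those of the starts at 67535499 and 67537566 lacked the letters. Nr4a1 held 4 copies, at 233, 213, 69 and 40 bases before its start, and Fos held 2, at 129 and 66 bases. The full CRE, TGACGTCA, which holds the 5 letters on both strands, was in none of the 8 and in 1.55% of all windows. No member window held the AP-1 letters TGANTCA (6.75% of all windows). The EGR letters GCGNGGGCG were in Fosl2, Fosb and Nr4a1 (4.70% of all windows). Among the 8, the CArG box was in Egr2 alone (1.47% of all windows). A match describes letters in the window and says nothing about binding in these samples.

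RNA was measured in 12 cortex libraries in 3 groups of 4. Wild-type mice (WT, Grn+/+) were aged 287 days in replicate 1 and 375 days in replicates 2 to 4. Knockout mice (KO, Grn-/-) lacked progranulin, a secreted protein delivered to lysosomes, and were aged 308, 282, 282 and 282 days in replicates 1 to 4. Humanized mutant mice (MUT, Grn-/-;GRNmEx5) lacked mouse Grn and came from a line built to carry a disease deletion of human GRN, at 287, 272, 309 and 282 days. The strain and the promoter that drives the human gene were not stated in the labels. Since the labels do not tie each library to its own animal, every p-value reflects the library-to-library spread, which may be technical. Libraries are named below by group and replicate, as in MUT-4. WT-1, MUT-1, MUT-2, MUT-4, KO-3 and KO-4 were labelled female and the others male.

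Library totals ranged from 16381221 to 20782195 counts. Grn measured 58.0 ± 1.35 CPM in WT against 12.8 ± 1.38 in KO and 13.5 ± 1.59 in MUT (mean with SD over 4 libraries). CPM are read counts brought to a common library size by TMM. Grn thus set every WT library apart from the 2 Grn-null groups. It did not tell KO from MUT (log2 fold change 0.06, edgeR adjusted p = 0.993), so it does not check those 2 labels. Transcripts that mark sex, Xist and the Y-linked Ddx3y, went against the labelled sex in all 12 libraries, and sex is therefore given as labelled. Markers of cortical excitatory neurons were high in every library (Slc17a7, the vesicular glutamate transporter, 1263 to 1793 CPM). Tissue makeup differed between libraries: the level of 8 striatal markers, a mean of log2 CPM centred on each gene's mean, was 0.79, 1.72 and 2.70 in WT-2, WT-3 and WT-4, 0.15 in KO-3 and between -0.89 and -0.41 in the others. The level of choroid plexus markers, over 5 of 6 that were tested, was 2.62, 3.49 and 3.93 in WT-4, MUT-1 and KO-3 and between -1.77 and -0.35 in the others.

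Of the 12 libraries, 3 stood apart in the immediate early genes. The level of the 10 genes, computed in the same way, was 0.66 in MUT-4, 0.63 in KO-3 and 0.77 in KO-4. The other 9 libraries lay between -0.50 in MUT-3 and 0.06 in KO-1, with the 4 WT libraries close together at -0.19 to -0.11. MUT-4, KO-3 and KO-4 are the libraries labelled both female and 282 days old. KO-2, also 282 days old and labelled male, was at -0.37, and the libraries labelled female at other ages, WT-1, MUT-1 and MUT-2, were at -0.16, -0.47 and -0.18. No WT library was 282 days old, so this combination of labelled age and sex was seen only in the Grn-null groups. KO-3 was high in choroid plexus markers, while MUT-4 and KO-4 were low, at -1.73 and -1.01. Its summed choroid plexus signal was 1977 CPM against 11.0 and 15.6. What part the makeup of the tissue had in these levels was not tested.

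Per kilobase of exon, Egr1 was the most abundant member, at 201 ± 49.4 RPKM (mean ± SD over 12 libraries). Arc followed at 144 ± 77.2, Nr4a1 at 82.6 ± 36.9 and Junb at 64.2 ± 32.7 RPKM. Egr4 measured 35.2 ± 8.33 and Fos 26.1 ± 13.8 RPKM. The least abundant were Fosl2 at 16.7 ± 2.79, Fosb at 10.7 ± 2.54, Npas4 at 9.81 ± 3.54 and Egr2 at 7.65 ± 4.33 RPKM. The order held in every library for Arc over Nr4a1, Junb over Egr4 and Fosl2 over Fosb. It was least fixed between Fosb and Npas4, where Fosb was the higher in 7 of 12 libraries, and Fos over Fosl2 and Npas4 over Egr2 held in 9 each. The lowest count behind any member's value was 174 reads, for Egr2 in MUT-3.

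**Figure D1:**
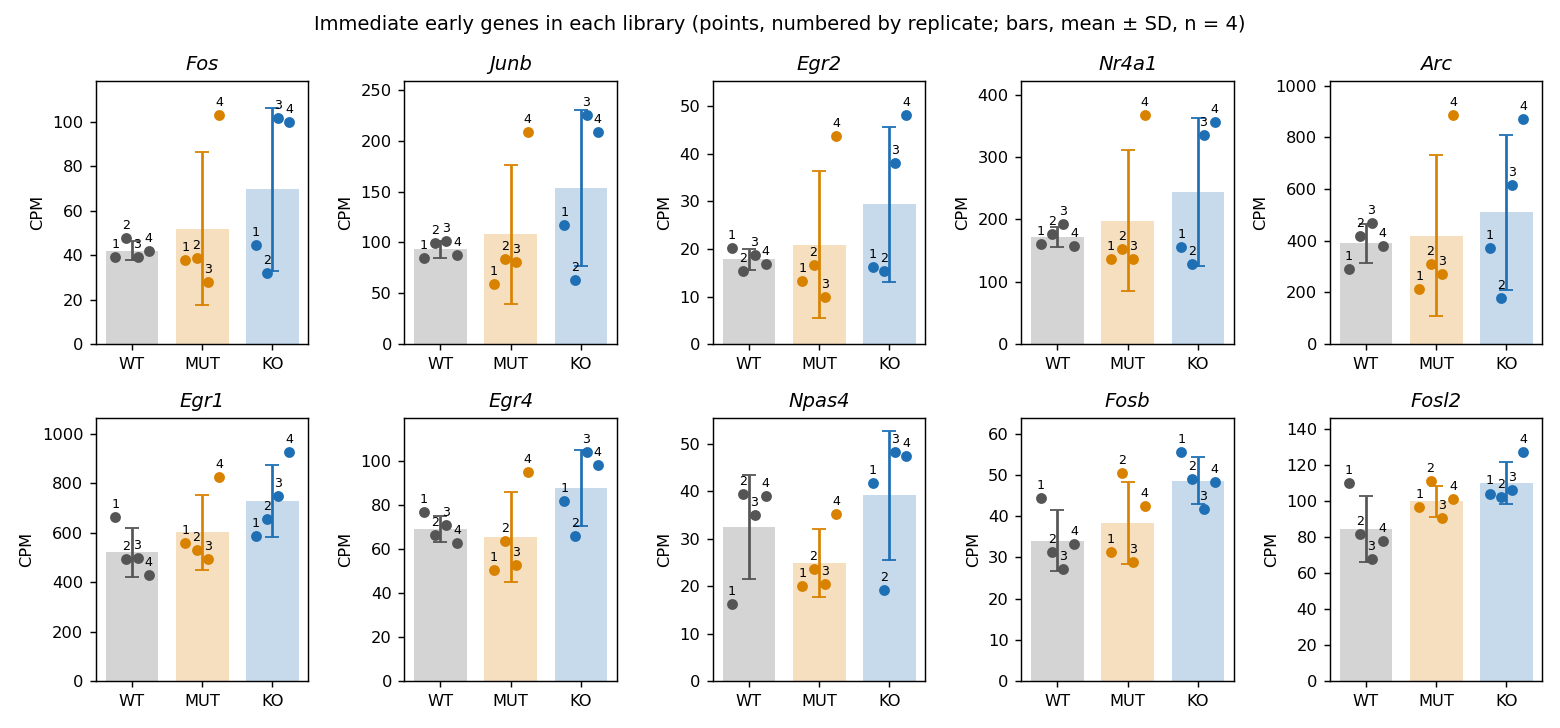
CPM of each gene (vertical axis, linear from 0) in WT, MUT and KO libraries. Points are single libraries with their replicate number, bars the mean and error bars the SD (n = 4). In Fos, Junb, Egr2, Nr4a1 and Arc, MUT-4, KO-3 and KO-4 lie above all other libraries, while Fosb and Fosl2 do not show this.

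The AP-1 factors were described first. Fos (Entrez 14281; mm10 chromosome 12, 85473901 to 85477269, plus strand, 4 exons) encodes the subunit that pairs with Jun proteins and is the most used marker of activated neurons. It measured 39.3, 48.0, 39.1 and 42.0 CPM in WT-1 to WT-4, and 37.8, 39.0, 28.0 and 103 in MUT-1 to MUT-4. In KO-1 to KO-4 it measured 44.8, 32.0, 102 and 100 CPM. MUT-4, KO-3 and KO-4 were each near 2.5 times the median of 12 libraries, with ratios of 2.54, 2.50 and 2.47, and of the rest KO-1 was within the WT range while KO-2 and MUT-1 to MUT-3 were below it. Bulk RNA cannot tell more cells with Fos transcript from more transcript per cell.

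Junb (Entrez 16477; chromosome 8, 84976909 to 84978748, minus strand, 1 exon) encodes a Jun partner of Fos. It measured 84.7, 99.6, 101 and 87.5 CPM in WT, 58.9, 83.5, 80.5 and 209 in MUT and 117, 62.8, 225 and 209 in KO, in replicate order. As with Fos, MUT-4, KO-3 and KO-4 were the highest. KO-1 was above every WT library, and KO-2 and MUT-1 to MUT-3 were below every one.

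Fosb (Entrez 14282; chromosome 7, 19302696 to 19310045, minus strand, 4 exons) encodes a Fos paralog whose truncated splice form, known as deltaFosB, is stable and accumulates with repeated activity. Gene counts do not separate the forms. It measured 44.5, 31.2, 27.2 and 33.2 CPM in WT, 31.3, 50.4, 29.0 and 42.5 in MUT and 55.6, 49.0, 41.8 and 48.3 in KO. The highest library was KO-1, and all KO libraries were above WT-2, WT-3 and WT-4 but KO-3 was below WT-1. The SD within KO was 5.67 CPM, against 36.6 CPM for Fos.

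Fosl2 (Entrez 14284; chromosome 5, 32136472 to 32157840, plus strand, 4 exons) encodes Fra-2, a Fos family member with slower kinetics. Its values were 110, 81.7, 67.5 and 77.9 CPM in WT, 96.3, 111, 90.2 and 101 in MUT, and 104, 102, 106 and 127 in KO. WT-2, WT-3 and WT-4 were below all MUT and KO libraries, and WT-1 was among them. Those 3 WT libraries are also the 375-day libraries and the only WT libraries labelled male. They were the highest in striatal markers and the lowest in hippocampal markers. Age, labelled sex, striatal tissue and hippocampal tissue therefore cannot be told apart within WT.

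Egr1 (Entrez 13653; chromosome 18, 34861207 to 34864956, plus strand, 2 exons) encodes a zinc finger factor, also known as Zif268, that has a sizeable level in resting cortex. It measured 663, 492, 499 and 430 CPM in WT, 558, 530, 492 and 826 in MUT and 586, 655, 747 and 927 in KO. The 3 highest were again KO-4, MUT-4 and KO-3, but the whole range was only 2.16-fold, against 3.69-fold for Fos.

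Egr2 (Entrez 13654; chromosome 10, 67537869 to 67542188, plus strand, 2 exons), a paralog that is also required for myelination by Schwann cells, measured 20.2, 15.3, 18.8 and 16.9 CPM in WT. Its values were 13.3, 16.6, 9.98 and 43.6 CPM in MUT and 16.1, 15.4, 38.0 and 48.0 in KO. KO-4 and MUT-4 were 2.87 and 2.61 times the median of 12 libraries, and no library lay between 20.2 and 38.0 CPM. Egr4 (Entrez 13656; chromosome 6, 85511122 to 85513542, minus strand, 2 exons), a further paralog, measured 76.6, 66.3, 71.0 and 62.8 CPM in WT, 50.3, 63.5, 52.5 and 94.8 in MUT and 81.8, 65.8, 104 and 98.3 in KO. KO-3, KO-4 and MUT-4 were highest, with KO-1 next.

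Nr4a1 (Entrez 15370; chromosome 15, 101266846 to 101274795, plus strand, 7 exons) encodes the orphan nuclear receptor Nur77, induced by calcium signals. It measured 161, 176, 192 and 157 CPM in WT, 137, 152, 137 and 367 in MUT and 156, 128, 336 and 357 in KO. MUT-4, KO-3 and KO-4 were separated from the remaining 9 libraries, which lay between 128 and 192 CPM.

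Npas4 (Entrez 225872; chromosome 19, 4984355 to 4989971, minus strand, 8 exons) encodes a bHLH-PAS factor induced in neurons by calcium entry and tied to inhibitory synapse formation. It measured 16.3, 39.5, 35.0 and 39.1 CPM in WT, 20, 23.6, 20.4 and 35.3 in MUT and 41.8, 19.2, 48.3 and 47.4 in KO. KO-3 and KO-4 were highest, but MUT-4 was within the WT range. The lowest library was WT-1, which was at the top of WT for Egr1, Egr2, Egr4, Fosb and Fosl2.

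Arc (Entrez 11838; chromosome 15, 74669083 to 74672570, minus strand, 3 exons), whose product acts in AMPA receptor removal from synapses and whose RNA travels into dendrites, had the widest range of the 10 genes. It measured 292, 420, 468 and 378 CPM in WT, 213, 311, 272 and 885 in MUT and 371, 179, 616 and 872 in KO. The highest library was 4.95 times the lowest, and KO held both the lowest library, KO-2, and the second highest, KO-4.

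The members varied more between libraries of 1 group than most genes did. The within-group SD of log2 CPM ran from 0.205 for Fosl2 to 0.794 for Arc, where the median of all tested genes was 0.126. Arc, Egr2, Fos and Junb had an SD above that of 98.8%, 98.3%, 98.0% and 98.0% of tested genes. The coefficient of variation of Fos was 66.4% in MUT and 52.4% in KO against 9.88% in WT, and that of Junb, Egr2, Egr4, Arc and Nr4a1 was also higher in both than in WT. Fosl2 went the other way, with 21.6% in WT against 8.88% in MUT and 10.6% in KO. Fosb was at 21.8% in WT, 26.1% in MUT and 11.7% in KO.

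**Figure D2:**
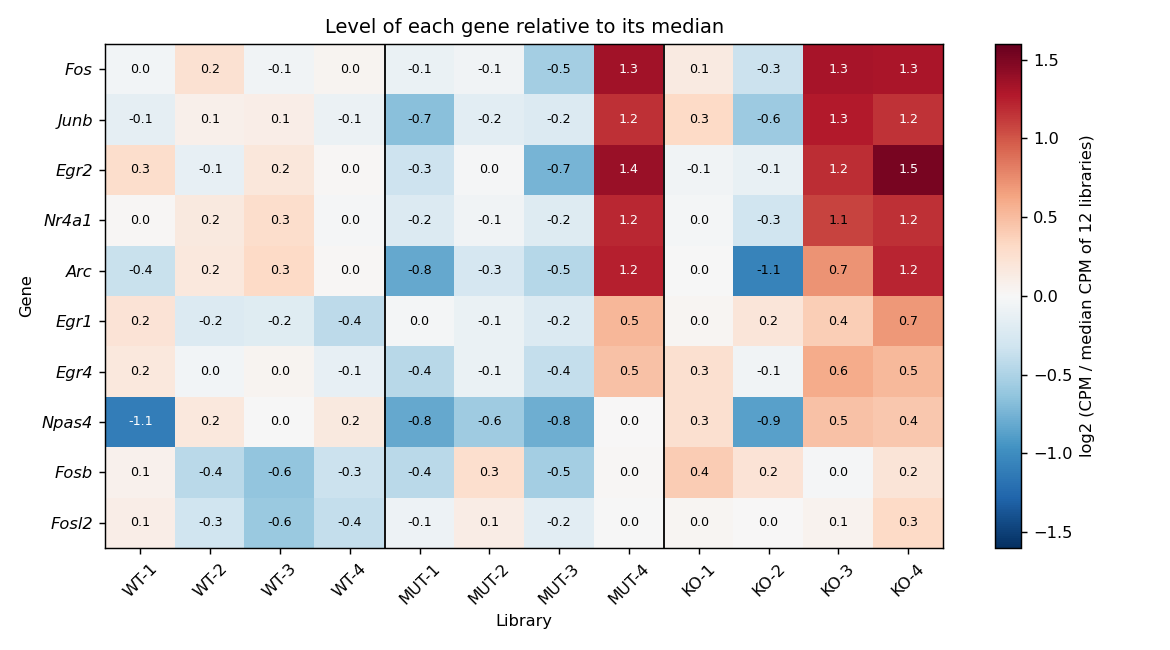
Level of each gene (rows) in each library (columns) as log2 of its CPM over its median CPM in the 12 libraries, with the value in each cell and vertical lines between groups. Columns MUT-4, KO-3 and KO-4 are above 1 for Fos, Junb, Egr2 and Nr4a1, while Fosl2 is lowest in WT-2, WT-3 and WT-4.

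Of the genes, 6 formed a tight block, and Fosb and Fosl2 stood apart from it. Across the 12 libraries, the Pearson correlation of log2 CPM was 0.97 between Fos and Nr4a1, 0.95 between Fos and Egr2 and 0.94 between Fos and Junb. These points share libraries and rest largely on MUT-4, KO-3 and KO-4, so the correlations are descriptions. With the level of the remaining 9 members, r was 0.88 to 0.96 for Fos, Junb, Egr2, Nr4a1, Egr4 and Arc. It was 0.76 for Egr1 and 0.65 for Npas4. Fosb and Fosl2 had r of 0.34 and 0.40 with the other members but 0.81 with each other, and they lay on the same side of their means in 12 of 12 libraries. With group means removed, r between Fosb and Fosl2 was 0.72, and r between Fosb and Nr4a1 was 0.00.

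**Figure D3:**
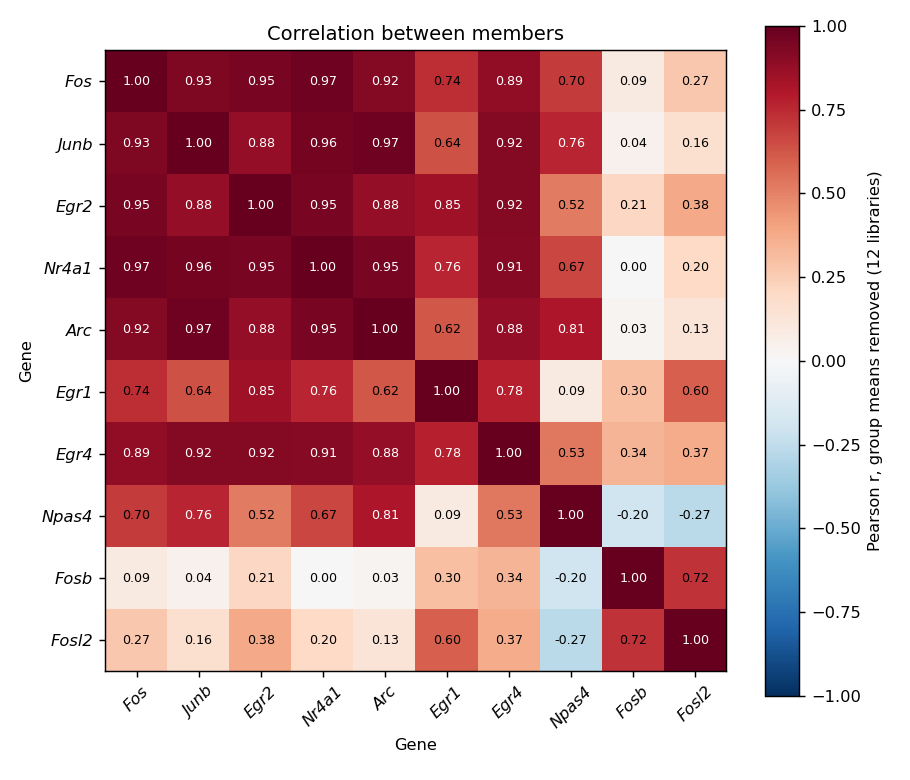
Pearson r of log2 CPM between each pair of genes over 12 libraries with group means removed, with the value in each cell. Fos, Junb, Egr2, Nr4a1, Arc and Egr4 form a block with r of 0.88 or more, and Fosb and Fosl2 pair with each other at 0.72.

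The 8 other genes whose log2 CPM followed the level of the 10 members most closely over the 12 libraries were Ccn1 (r = 0.965), Per1 (0.963), Tiparp (0.942), Ier2 (0.934), Sik1 (0.930), Plk3 (0.927), Mcl1 (0.918) and Dusp1 (0.914). Genes named only as predicted models (Gm), Rik or LOC, and genes without a symbol, were left out of this ranking. All 8 were highest in MUT-4, KO-3 and KO-4, which follows largely from choosing them by this correlation. Sik1, a kinase that restrains the CREB coactivators, ranged from 18.0 to 51.1 CPM, and Mcl1, a survival factor of the Bcl-2 family, from 75.9 to 102 CPM. Ier2 encodes a nuclear immediate early protein and ranged from 7.70 CPM in WT-1 to 26.0 CPM in MUT-4. Dusp1, a phosphatase that turns off MAP kinases, ranged from 21.6 CPM in KO-2 to 76.4 in KO-3. Per1, a clock gene that is also induced through CREB, ranged from 154 CPM in KO-2 to 275 in KO-4. Ccn1, a secreted matrix protein, had the widest range of the 8, from 3.77 to 20.2 CPM.

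Knockout was compared with wild type to ask whether loss of Grn changed these genes. Group means were higher in KO for all 10 members, but none passed the test: 0 of 10 had an adjusted p below 0.05 in edgeR's quasi-likelihood test, where 0.490% of all tested genes did (22 higher and 53 lower). At an unadjusted p below 0.05 there were 3 members, Fosl2, Egr1 and Fosb, or 30%, against 17.6% of all genes. DESeq2 called 1, Fosl2, where it called 4.54% of genes. The fitted log2 fold changes were above 0 for 10 of 10 members with a median of 0.31, while over all genes 51.3% were above 0 with a median of 0.0047. The CPM ranges of KO and WT overlapped for each member. They did not overlap for 9.11% of all genes.

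In the AP-1 group, the fitted log2 fold change of Fosl2 was 0.32 ± 0.09 (SE; adjusted p = 0.107, edgeR), from 84.3 ± 18.3 CPM in WT to 110 ± 11.7 in KO (SD, n = 4). Fosb gave 0.49 ± 0.18 (adjusted p = 0.206), with a 95% interval of 0.08 to 0.89. Fos gave 0.33 ± 0.42 (adjusted p = 0.738) and Junb 0.42 ± 0.46 (adjusted p = 0.691), with intervals of -0.62 to 1.28 and -0.63 to 1.47 that reach from below the WT level to well above it. Among the Egr genes, Egr1 gave 0.38 ± 0.13 (adjusted p = 0.181), from 521 ± 99.8 to 729 ± 148 CPM. Egr2 gave 0.30 ± 0.40 (adjusted p = 0.755) and Egr4 0.23 ± 0.17 (adjusted p = 0.512). The difference for Arc was 0.01 ± 0.57 (adjusted p = 0.996), for Npas4 0.23 ± 0.39 (0.808) and for Nr4a1 0.19 ± 0.38 (0.848). Leaving out WT-1 changed a call: without it, Fosl2 passed at 0.44 (adjusted p = 0.00867), in a fit that called 10.5% of all genes.

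The direction of several members rested on single libraries. Without MUT-4, KO-3 and KO-4, an alternative chosen after seeing the data, the KO against WT median was -0.08 and 4 of 10 members were above 0. Fos was then at -0.10, Junb at -0.09, Egr2 at -0.07, Npas4 at -0.18, Nr4a1 at -0.28 and Arc at -0.56, and no adjusted p passed. Fosb, Fosl2, Egr1 and Egr4 stayed above 0, at 0.78, 0.41, 0.35 and 0.14. Without WT-1 alone, the median was 0.00, 5 of 10 members were above 0, and Fos, Egr2, Arc, Npas4 and Nr4a1 were at -0.10, -0.08, -0.46, -0.25 and -0.16. Among libraries under 310 days, which leave WT-1 as the only WT library and assume that it varies like the other groups, Fosb was at 0.17 and Fosl2 at 0.08, while Fos was at 1.31, Junb at 1.21, Egr2 at 1.06, Arc at 1.21, Npas4 at 1.5 and Nr4a1 at 0.98. The median was then 1.02, and no member passed. With the striatal marker level as a term, Fosb was at 0.34 and Fosl2 at 0.17 (edgeR adjusted p = 0.659 and 0.543), Fos at 0.68, Junb at 0.72, Egr2 at 0.61 and Npas4 at 0.75, with a median of 0.44.

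**Figure D4:**
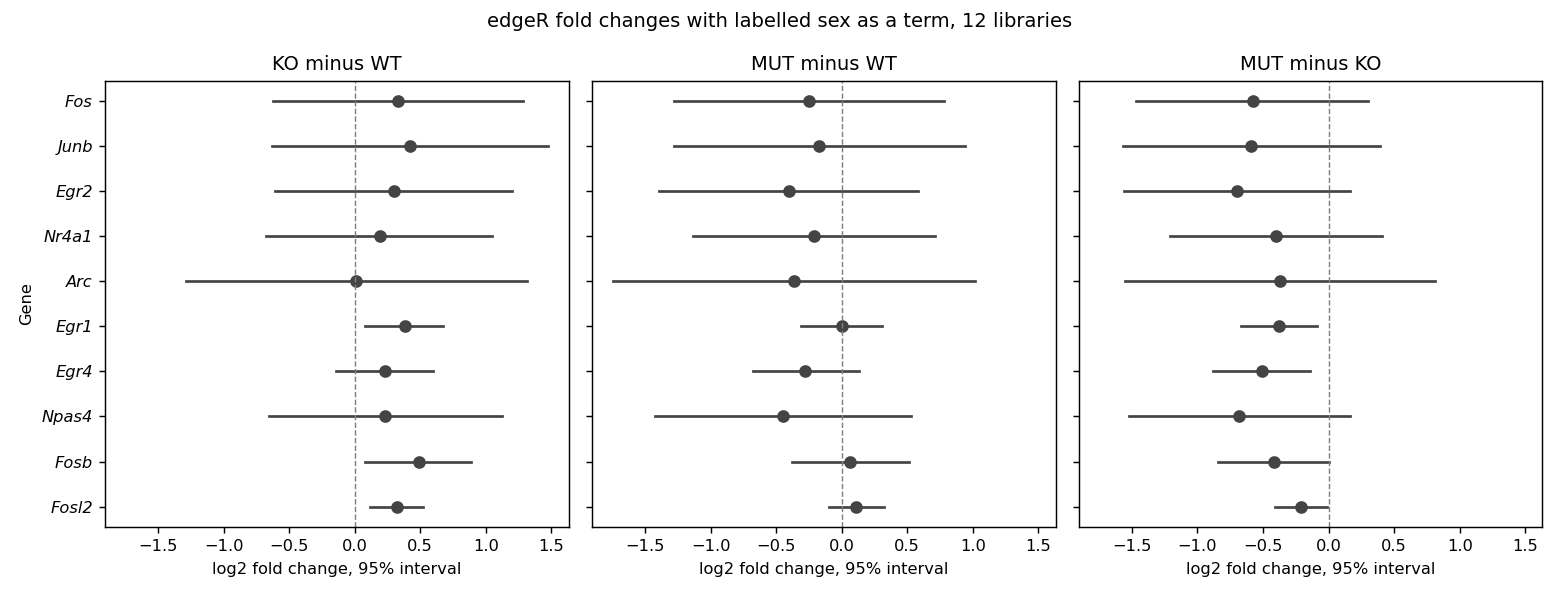
Fitted log2 fold changes (points) with 95% intervals (lines) from edgeR with labelled sex as a term, 12 libraries, in 3 panels for KO minus WT, MUT minus WT and MUT minus KO. The dashed line is no difference. Intervals of Fosb, Fosl2 and Egr1 lie above 0 in KO minus WT before adjustment, and those of Fos, Junb, Egr2, Nr4a1, Npas4 and Arc span 0 in all panels.

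The humanized mutant was compared with wild type in the same fit, sharing the WT libraries. No member passed (0 of 10, against 0.0131% of all genes), and none had an unadjusted p below 0.05, where 10.9% of all genes did. DESeq2 also called 0. Fitted log2 fold changes were above 0 for Fosb (0.06 ± 0.20, SE) and Fosl2 (0.11 ± 0.10), and the median of the 10 was -0.23. Npas4 had the lowest value, -0.45 ± 0.43 (adjusted p = 0.729, edgeR), from 32.5 ± 10.9 CPM in WT to 24.8 ± 7.16 in MUT (SD, n = 4). Egr2 was at -0.40 ± 0.44 and Arc at -0.36 ± 0.61, with adjusted p of 0.765 and 0.857. Fos was at -0.25 ± 0.45, Nr4a1 at -0.21 ± 0.40 and Junb at -0.17 ± 0.49. For these 3 genes, Egr2 and Arc, the fitted sign was opposite to that of the plain means, which MUT-4 raised: Fos averaged 52.0 ± 34.5 CPM in MUT and 42.1 ± 4.16 in WT. Egr4 was at -0.28 ± 0.18 and Egr1 at 0.00 ± 0.14. Without the sex term the median was 0.21, so the direction in this comparison depends on that term. WT-1 is the only WT library labelled female, while MUT-3 is the only MUT library labelled male. The term also draws on MUT-4, KO-3 and KO-4, which are all labelled female. The median also moved with single libraries: it was -0.58 without WT-1 and -0.50 without MUT-4, but -0.10 without MUT-1, -0.12 without MUT-2, -0.13 without KO-2 and -0.14 without WT-2. The CPM ranges overlapped for each member, and did not for 7.09% of all genes.

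The humanized mutant was also compared with the knockout, to ask whether the 2 Grn-null groups differed. Group means were lower in MUT for all 10 members, and 0 of 10 passed in edgeR, against 0.00654% of all genes, or in DESeq2. At an unadjusted p below 0.05 there were 4 of 10, against 5.67% of all genes: Egr4 at -0.51 ± 0.17 (SE; adjusted p = 0.749), Egr1 at -0.38 ± 0.13 (0.759), Fosl2 at -0.21 ± 0.09 (0.878) and Fosb at -0.42 ± 0.19 (0.878). The median of the 10 was -0.46. Egr2 was at -0.70 ± 0.38, Npas4 at -0.68 ± 0.37, Junb at -0.59 ± 0.43, Fos at -0.58 ± 0.39, Nr4a1 at -0.40 ± 0.36 and Arc at -0.37 ± 0.52. MUT holds 1 of the 3 libraries with high levels and KO holds 2, and without all 3 the median was -0.28, with Arc at 0.15 and Nr4a1 at 0.02. Without MUT-4 alone it was -0.82, with Fos at -1.02, Egr2 at -1.19 and Arc at -0.91, and no member passed. The CPM ranges overlapped for each member, and did not for 5.22% of all genes. This comparison shares its KO libraries with the first.

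The labelled sex term had its highest values in the block of genes that moved together. Labelled female minus labelled male was 1.06 ± 0.35 on the log2 scale for Egr2 (SE; mean 30 against 15.4 CPM), 0.89 ± 0.37 for Fos, 0.73 ± 0.51 for Arc and 0.71 ± 0.33 for Nr4a1. Fosl2 had the lowest adjusted p of the members at 0.662, with 0.29 ± 0.08. Egr1 was at 0.43 ± 0.12, above Egr4 of the block at 0.36 ± 0.15. Npas4 was at 0.09 ± 0.35. MUT-4, KO-3 and KO-4 are 3 of the 6 libraries labelled female. The other 3, WT-1, MUT-1 and MUT-2, had Fos at 39.3, 37.8 and 39.0 CPM, within the 28.0 to 48.0 CPM of the libraries labelled male. For Fosl2, WT-1 and MUT-2 were at 110 and 111 CPM, above the 67.5 to 104 CPM of the libraries labelled male, and MUT-1 was within them at 96.3. For Egr1, WT-1 was above them at 663 CPM against 430 to 655, and MUT-1 and MUT-2 were within at 558 and 530.

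Other genes of the pathway were read in 4 lists. Of 16 other immediate early transcription factors 15 were tested, Fosl1 having 1 to 10 counts, and 0 passed in any comparison with edgeR or DESeq2. At an unadjusted p below 0.05 in edgeR there was 1 in KO against WT (6.67%, against 17.6% of all genes). There were 0 in MUT against WT and in MUT against KO, where 10.9% and 5.67% of all genes were. In KO against WT 11 of 15 were above 0 (73.3%, against 51.3% of all genes), with a median of 0.13. Jund, the most constant Jun protein, measured 182 ± 16.1 CPM in WT and 204 ± 12.3 in KO (SD, n = 4). Its log2 fold change was 0.15 (edgeR adjusted p = 0.254). It passed without WT-1 (0.24, adjusted p = 0.0448), in a fit that called 10.5% of all genes. Crem, a CREB relative, was at 0.21 in MUT against WT (adjusted p = 0.575). Csrnp1 was at -0.30 there (0.652), and Maff, a small Maf factor, at -0.37 in MUT against KO (0.958).

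Of 17 rapid feedback and signalling genes, 0 passed in any comparison with edgeR or DESeq2. At an unadjusted p below 0.05 in edgeR there was 1 in MUT against WT (5.88%, against 10.9% of all genes). There were 0 in KO against WT and in MUT against KO, where 17.6% and 5.67% of all genes were. In KO against WT 14 were above 0 (82.4%, against 51.3% of all genes), with a median of 0.095. Rgs2, a brake on G protein signals, measured 61.9 ± 8.48 CPM in WT and 52.6 ± 3.79 in MUT (log2 fold change -0.21, adjusted p = 0.436). Dusp4, a MAP kinase phosphatase, was at 0.30 in the same comparison (0.474). Gadd45b, a stress and activity gene, was at 0.20 in KO against WT (0.346), and the kinase Plk3 at -0.22 in MUT against KO (0.920).

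The 12 activity-regulated effectors, which include genes induced later than the members, had 0 calls in edgeR. At an unadjusted p below 0.05 there was 1 each in KO and in MUT against WT (8.33%, against 17.6% and 10.9% of all genes). Medians of 0.035 in KO against WT and -0.011 in MUT against WT were found for these effectors. Sorcs3, a sorting receptor at synapses, had the lowest p among them, at -0.54 in KO against WT (adjusted p = 0.145), from 83.9 ± 18.6 to 55.5 ± 5.61 CPM. It passed there with DESeq2 (adjusted p = 0.0221), the list's only DESeq2 call, and in edgeR without WT-1 (-0.75, adjusted p = 0.0137). These fits called 4.54% and 10.5% of all genes. Bdnf, the neurotrophin, was at 0.20 in that comparison (0.465). Ptgs2, or cyclooxygenase 2, was at -0.23 in MUT against KO (0.884) and Nptx2, a pentraxin of excitatory synapses, at -0.26 (0.969).

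The 16 upstream genes, from kinases to the factors bound at immediate early genes, had 0 calls in edgeR with all 12 libraries, the sex term and the low-count filter. In KO against WT 2 of 16 were above 0 (12.5%, against 51.3% of all genes), with a median of -0.11. At an unadjusted p below 0.05 there were 6 (37.5%, against 17.6% of all genes). Camk4, a nuclear calcium-dependent kinase that acts on CREB, was at -0.42 (adjusted p = 0.0606), from 259 ± 29.1 to 191 ± 11.1 CPM, and the factor Mef2a at -0.38 (0.0606), from 87.3 ± 9.11 to 66.0 ± 2.71 CPM. Mef2d was at -0.20 in MUT against WT (0.359), and Creb1 at 0.19 in MUT against KO (0.717). In KO against WT, DESeq2 called 3 of the 16, all lower: Camk4, Mef2a and Mef2d (adjusted p = 0.000887, 0.00223 and 0.0476). Over all genes it called 4.54% there, 190 higher and 445 lower. Camk4 and Mef2a also passed in edgeR without WT-1 (adjusted p = 0.00391 and 0.0341) and without the sex term (0.0293 and 0.0350). The fit without WT-1 called 10.5% of all genes. Mef2a passed without WT-3 (0.0165) and without the low-count filter (0.0477). With the striatal marker level as a term, Camk4 was at -0.30 and Mef2a at -0.35 (edgeR adjusted p = 0.334 and 0.298). WT-1, which is low in striatal markers, had Mef2a at 82.9 CPM against 62.5 to 69.2 in KO, and Camk4 at 221 against 182 to 205. The MUT libraries, also low in striatal markers, had Mef2a at 68.4 to 87.4 CPM and Camk4 at 184 to 234. What part the makeup of the tissue had in these values was not tested.

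The lists were also read for how they stood in MUT-4, KO-3 and KO-4. These were the 3 highest libraries for 7 of the 10 members (Fos, Junb, Egr1, Egr2, Egr4, Arc and Nr4a1), for 5 of 15 other transcription factors (Nr4a3, Ier2, Klf2, Klf4 and Btg2) and for 7 of 17 feedback genes (Dusp1, Dusp5, Sik1, Trib1, Per1, Tiparp and Plk3). Over all tested genes the share was 0.948%. None of the 12 effectors and none of the 16 upstream genes had this pattern. With a share of 0.948% over all genes, lists of this size would mostly hold none, so this does not set them apart. In the other direction, 2 effectors were lowest in these 3 libraries, where 0.543% of all genes were. Homer1, a scaffold protein whose short form is itself activity-induced and is not separated in gene counts, measured 180, 145 and 182 CPM there and 203 to 269 in the other libraries. Inhba, a subunit of activin, measured 3.34, 2.33 and 4.80 CPM there and 4.83 to 9.89 elsewhere. These genes were named after their values were seen. The 3 libraries were themselves picked because the level of the members was highest in them. The share for the members therefore follows from that choice and is not a test.

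**Figure D5:**
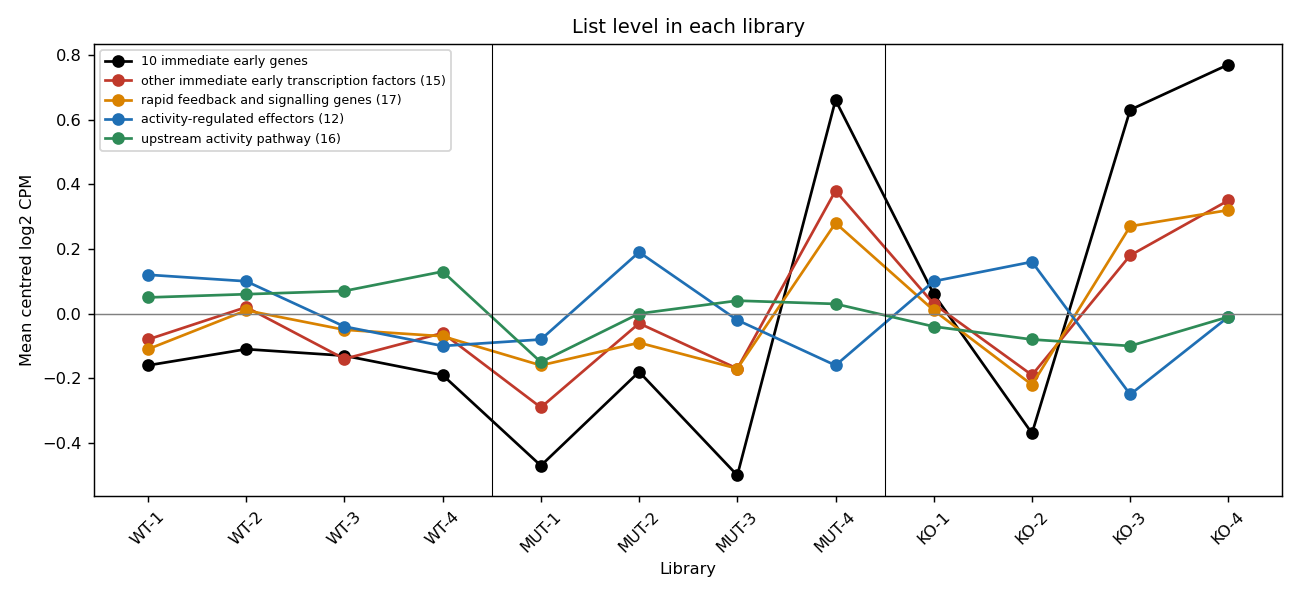
Level of the 10 members and of 4 pathway lists (mean over genes of log2 CPM centred on each gene's mean) in each library, with vertical lines between groups and the number of genes in the legend. The members peak at 0.66, 0.63 and 0.77 in MUT-4, KO-3 and KO-4, other transcription factors and feedback genes peak in the same libraries, and effectors are lowest in KO-3 and MUT-4.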

How the data were processed

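Directional RNA libraries were made from 12 cortex samples, per the labels' protocols. The deposited table holds raw read counts per gene, with Entrez IDs, exon coordinates and summed exon length per the file headers. R 4.1.2, DESeq2 1.34.0 and the mm10 build appear in the submitters' processing notes. Which aligner, counter and strand setting were used is not given in the sources used here. No other gene's exons overlap those of the members. Groups were taken from the labels. All 66 pairs of libraries differed beyond sampling noise, the lowest chi-square being 3.62 per degree of freedom.

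Low genes were removed by group with filterByExpr (at least 10 counts, total of 15). Counts were scaled by TMM, and edgeR 4.0.16 in R 4.3.3 fitted a quasi-likelihood model to all 12 libraries, with group and labelled sex as terms and robust dispersion estimates (8 residual degrees of freedom, common biological coefficient of variation 0.101). F tests were adjusted by Benjamini-Hochberg over the 15298 genes, with a threshold of 0.05. Genes without a symbol (1049) stayed in the totals. CPM uses TMM-scaled library sizes, log2 CPM a prior count of 2, and RPKM divides CPM by exon length in kilobases. Alternatives were RLE size factors, no low-count filter, DESeq2 1.42.0, other terms, the replicate block, subsets of libraries, and leaving out libraries singly. Replicate numbers did not pair the libraries: the correlation of same-numbered deviations from the group means lay between -0.38 and 0.29.

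The 10 members and the lists were chosen with earlier results of these data known. Named beside the members are up to 4 genes per pathway list with the smallest p over the 3 comparisons, each given in the comparison where its p was smallest. Also named are the 8 genes most correlated with the member level, with Gm, Rik and LOC genes and genes without a symbol left out. Promoter windows cover the 250 bases before each RefSeq start.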

Additional observations from a re-analysis of the deposited data

Results flagged for a closer look

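In 5 of the 30 sets of 4 libraries (10 genes in 3 groups), 1 library lay far from the other 3: its gap to the nearest of them, as a share of the whole range, was above Dixon's 95% critical value. Chance gives this in about 1 of 20 such sets if values are normal and the sets independent. Here values are on the linear CPM scale, the sets share libraries and several genes move together. Whether 5 of 30 is more than chance gives was therefore not tested. In MUT it was MUT-4 for 4 genes. Fos measured 103 CPM there against 28.0 to 39.0 in the other 3 libraries, and Junb 209 CPM against 58.9 to 83.5. Arc measured 885 CPM there against 213 to 311, and Nr4a1 367 CPM against 137 to 152. In KO, Fosl2 measured 127 CPM in KO-4 against 102 to 106 in the other 3. The values in MUT-4 come from 1 library, in which these 4 genes were high together.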

How the results depend on the processing

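No member passed in MUT against WT or in MUT against KO under any of the 22 alternatives. In KO against WT, 1 member, Fosl2, passed with DESeq2 (adjusted p = 0.0327) and without WT replicate 1, and none in the other 20; leaving out single libraries gave 0 to 1. Over all genes the calls for KO against WT ran from 1 to 1620, against 75 as reported, for MUT against WT from 2 to 1030, against 2, and for MUT against KO from 1 to 37, against 1. Both highest counts against WT came without WT-1, and the cause was not tested. With the replicate block, 0 members passed in each comparison, the medians were 0.32, -0.25 and -0.48, and 2 genes passed in KO against WT over all genes. The yardstick for the member medians (log2) was 0.437, the pooled within-group SD of the member level over libraries. The medians moved by more than this with age as a term (KO against WT 1.11, MUT against WT 0.45). They also did so under 310 days (1.02 and 0.41) and without the sex term (MUT against WT 0.21).

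Signs changed as follows, all values being log2 fold changes that did not pass in either setting, and the cause was not tested. In KO against WT, Arc was at -0.01 without the 3 libraries high in choroid plexus markers. Without MUT-4, KO-3 and KO-4, Fos was at -0.10, Junb at -0.09, Egr2 at -0.07, Arc at -0.56, Npas4 at -0.18 and Nr4a1 at -0.28. Jund was at -0.07 and Bdnf at -0.19 with age as a term, Bdnf at -0.03 with the striatal level, and Jund at -0.0073 and Bdnf at -0.14 under 310 days. Leaving out single libraries, Fos ranged from -0.10 to 0.56, Egr2 from -0.08 to 0.41, Arc from -0.46 to 0.41, Npas4 from -0.25 to 0.60 and Nr4a1 from -0.16 to 0.40, each lowest without WT-1.

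In MUT against WT, Egr1 was at 0.0019 without the low-count filter and Junb at 0.07 without the choroid-high libraries. Without the sex term Fos was at 0.30, Junb at 0.21, Egr1 at 0.21, Egr2 at 0.22, Arc at 0.11 and Nr4a1 at 0.21. With sex and age Fos was at 0.73, Fosb at -0.29, Fosl2 at -0.10, Junb at 0.78, Egr2 at 0.28, Arc at 1, Npas4 at 0.89, Nr4a1 at 0.61, Crem at -0.07 and Csrnp1 at 0.22. With sex and the striatal level Fos was at 0.12, Fosb at -0.07, Fosl2 at -0.04, Junb at 0.15, Arc at 0.06, Npas4 at 0.09 and Nr4a1 at 0.09. Under 310 days, with 1 WT library, Fos was at 0.64, Fosb at -0.20, Fosl2 at -0.10, Junb at 0.57, Egr2 at 0.28, Arc at 0.78, Npas4 at 0.72, Nr4a1 at 0.53, Csrnp1 at 0.16 and Dusp4 at -0.0099. Without MUT-4, KO-3 and KO-4 Fosb was at -0.10. Leaving out single libraries, Fosb ranged from -0.06 to 0.27, Junb from -0.56 to 0.0075 and Egr1 from -0.12 to 0.07. In MUT against KO, Arc was at 0.15 and Nr4a1 at 0.02 without the same 3 libraries, and Grn ranged from -0.0002 to 0.13 with single libraries left out.

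Grn in KO and MUT against WT stayed between -2.30 and -2.03 in every alternative. No member's value rests on fewer than 174 counts.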

Other observations

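Close relatives of the members did not all share their pattern. These genes, Jun, Egr3, Nr4a2 and Nr4a3, were chosen for their families after their values were seen. Jun, the main partner of Fos, measured 79.0 CPM in MUT-4, 56.9 in KO-3 and 66.8 in KO-4, with WT at 51.7 to 59.2 and KO-1 at 70.1. Egr3, a paralog of Egr1, measured 107, 103 and 128 CPM in the same 3 libraries and was highest in WT-1, at 158. Nr4a2, a paralog of Nr4a1, measured 97.7, 64.8 and 109 CPM there, with 132 in KO-1 and 123 in WT-1. For these 3 genes, MUT-4, KO-3 and KO-4 were not together the highest libraries. For Nr4a3, another paralog of Nr4a1, they were, at 28.8, 28.1 and 27.9 CPM against at most 26.1 in the others. These differences between genes were not tested.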
